A study of Drosophila melanogaster with 33 samples.

Results

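Of the 16407 genes listed in each of the poly(A) and rRNA-depleted tables, 7 were followed here by name: bicoid (bcd), exuperantia (exu), swallow (swa) and staufen (stau), which act in the anterior placement of bcd RNA, and torso (tor), torso-like (tsl) and trunk (trk), which act in terminal patterning. All 7 had a row in both tables. They are grouped by function. All 7 passed the filter on low levels in the poly(A) table and 6 did in the rRNA-depleted table, where tsl did not.

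The embryos were Oregon R, a wild-type strain, and every one received an injection of 5-ethynyl uridine (5-EU), which RNA polymerases build into new RNA in place of uridine. They were staged by shape as nuclear cycle (NC) 7-9, NC 9-10, syncytial blastoderm or cellular blastoderm. Tagged RNA was taken on streptavidin beads, which gave an eluate (pulled-down RNA), a flow-through (RNA that did not bind) and an input (RNA before the pull-down) from each preparation. The 21 poly(A) libraries came from 7 preparations, of which NC 7-9 had 1 and every other stage had 2, and the 12 rRNA-depleted libraries came from 1 preparation per stage. Embryos received 5-EU at 250 mM, or at 50 mM in the second of the poly(A) preparations of syncytial and of cellular blastoderm, so dose and preparation cannot be told apart at those stages. No uninjected embryos were analysed here. The labels do not say whether preparations came from separate collections, so p-values cannot reach beyond these preparations. Fractions of a preparation departed together from their group means across genes, at a Pearson r of 0.511 to 0.929. The main poly(A) fit nevertheless took all 21 libraries as independent. Its p-values thus do not measure the spread between the 7 preparations alone.

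In the ovary, bcd RNA is made by nurse cells and carried along microtubules to the anterior of the oocyte, where Exuperantia and Swallow are needed during oogenesis and Staufen, a double-stranded RNA-binding protein, holds it in the late oocyte and egg. In the embryo the RNA is translated into a homeodomain protein that forms a gradient, activates hunchback and head genes and blocks translation of caudal. Torso is a receptor tyrosine kinase present over the whole egg surface. It is activated only at the poles by Trunk, a cystine-knot ligand made in the germline, in a step that needs Torso-like, which polar follicle cells secrete around the egg. Signalling through Ras and the MAP kinase pathway then lifts Capicua repression of tailless and huckebein.

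Levels are the deposited RPKM values less the constant of 1 that they contain, rescaled so that the median gene is alike across libraries of a table. They are per length, so genes can be compared, and they are shares of a library, so a lower level means lower relative to other RNA. The spacing of low values gave an estimate of the reads behind a library: in units of 1000000 reads, these were 1.95 to 37.2 in the poly(A) set and 2.15 to 34.8 in the rRNA-depleted set. In whole embryos, less RNA per cell and fewer cells that hold it cannot be told apart. Markers of germ plasm and pole cells were above 0 in all libraries (8 of 8 genes), at a summed level of 3874 and 4696 in poly(A) flow-throughs of NC 9-10. Of the 10 markers of older embryo tissues, 8 were above 0 in each poly(A) eluate of cellular blastoderm, against 9 and 8 in the inputs, and their summed level was 134 and 37.7 in these eluates, against 26.2 and 7.44 in the inputs.

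A pair of libraries went against their label. The inputs labelled rRNA-depleted at NC 9-10 and at syncytial blastoderm had a summed level of replication-dependent histone genes, whose RNAs carry no poly(A) tail, of 5.40 and 5.22, whereas the other 10 rRNA-depleted libraries had 77.0 to 1091. Their profiles correlated across genes most with poly(A) inputs, at a Pearson r of 0.994 with NC 9-10 (second preparation) and 0.985 with syncytial blastoderm (first preparation), against at most 0.902 and 0.880 with rRNA-depleted libraries. The rRNA-depleted eluates of syncytial and cellular blastoderm also correlated most with a poly(A) library (0.779 and 0.888, against at most 0.763 and 0.701 with rRNA-depleted ones), but their histone levels were high, at 1091 and 695. The inputs at NC 9-10 and syncytial blastoderm are called the inputs labelled rRNA-depleted below. The comparisons within poly(A) libraries and within flow-throughs do not use their levels. They were, however, among the libraries over which the rRNA-depleted table was scaled.

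In poly(A) flow-throughs, which hold the RNA that the beads did not retain, the 7 genes spanned a wide range. At NC 7-9, swa had the highest level (270.1), followed by exu (202), stau (184), tor (116) and bcd (115), then trk (10.6), and tsl was listed at 0. At NC 9-10 the means were 287 ± 5.79 for swa, 172 ± 44.5 for exu, 151 ± 66.2 for stau, 135 ± 24.3 for tor, 132 ± 4.16 for bcd and 11.9 ± 3.96 for trk (SD, n = 2 preparations). Both exu values lay above both bcd values there, stau and tor overlapped with each of them, swa lay above all of these and trk below them. At cellular blastoderm the order of the means had become stau (208 ± 149), tor (132 ± 6.50), swa (104 ± 6.58), bcd (69.3 ± 0.976), exu (10.5 ± 2.21), trk (1.79 ± 0.927) and tsl (0.208 ± 0.0481), with tor above swa and swa above bcd in both preparations and stau overlapping tor and swa.

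**Figure D1:**
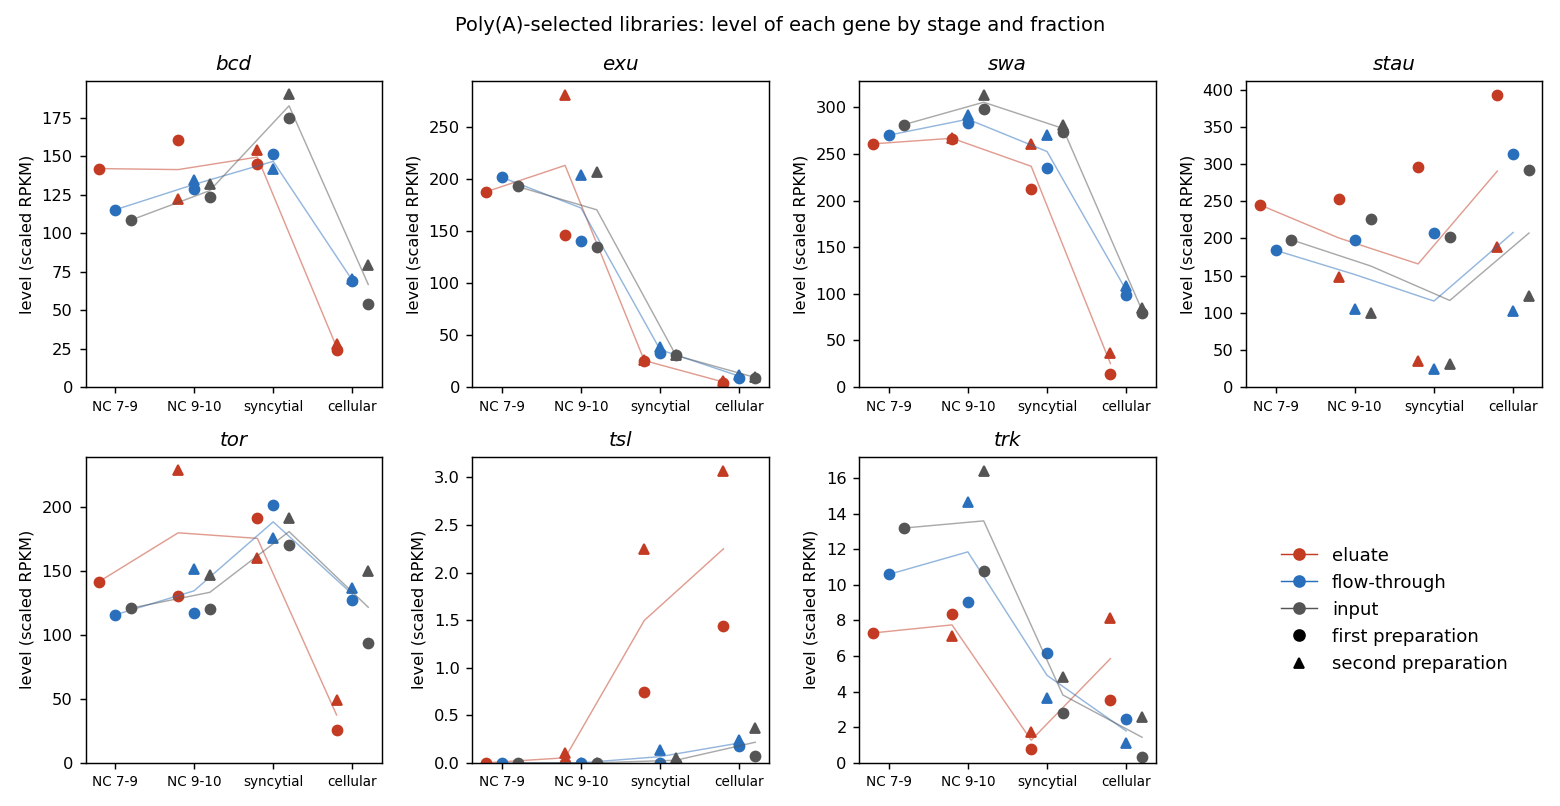
Level of each gene (scaled RPKM, linear axis from 0) in every poly(A) library, by stage and by fraction, with circles for the first and triangles for the second preparation and lines through the means. The exu level was low by syncytial blastoderm, bcd and swa were low only at cellular blastoderm, stau differed between preparations, and tsl was seen almost only in blastoderm eluates.

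Loss from the flow-through differed in time between the genes. In the poly(A) set the RNA of exu was called lower than at NC 9-10 by syncytial blastoderm, and those of bcd and swa only at cellular blastoderm. No change of tor was called between NC 9-10 and cellular blastoderm. Of the 7 genes, 4 (bcd, exu, swa and trk) were lower in cellular blastoderm than at NC 9-10 and none was higher. Among all genes tested, 48.5% of 8744 were called in this comparison and 23.2% were called lower. All calls are by limma on log2(level + 1) at a Benjamini-Hochberg adjusted p below 0.05 over all genes tested, and this scale understates changes of low genes.

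The determinant itself, bcd, had flow-through levels of 115 at NC 7-9, 129 and 135 at NC 9-10, 152 and 141 at syncytial blastoderm and 68.6 and 70.0 at cellular blastoderm. Both cellular blastoderm values lay below every earlier one. The level at cellular blastoderm was 52.6% of that at NC 9-10, a log2 difference of -0.92 ± 0.21 (SE; limma adjusted p 0.00299). Against syncytial blastoderm it was -1.07 ± 0.21 (limma adjusted p 0.00223). Between syncytial blastoderm and NC 9-10 the difference was 0.15 ± 0.21 (limma adjusted p 0.834), and that small value turned to -0.999 on the values as deposited, on which the median of all genes moved to -1.06.

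The RNA of exu, which encodes an RNA-binding protein needed in the first steps of bcd RNA transport, was already low at syncytial blastoderm. Its flow-through levels were 202 at NC 7-9, 141 and 204 at NC 9-10, 33.1 and 38.7 at syncytial blastoderm and 8.96 and 12.1 at cellular blastoderm, with no overlap between the last 3 stages. At syncytial blastoderm 20.9% of the NC 9-10 level was left, and at cellular blastoderm 6.11%. The log2 differences from NC 9-10 were -2.21 ± 0.33 at syncytial blastoderm (limma adjusted p 0.00312) and -3.90 ± 0.33 at cellular blastoderm (limma adjusted p 4.12e-06). Of the 7 genes, exu alone was called between syncytial blastoderm and NC 9-10, a comparison in which 6.59% of all genes were called and 5.96% were called lower. With flow-through libraries alone in the fit, that difference was -2.25 with a limma adjusted p of 0.0503.

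Ratios within a library do not depend on how libraries were scaled. The ratio of exu to bcd in flow-throughs was 1.75 at NC 7-9, 1.09 and 1.51 at NC 9-10, 0.218 and 0.274 at syncytial blastoderm and 0.131 and 0.173 at cellular blastoderm. The ratio had thus dropped in both preparations of syncytial blastoderm, when bcd itself had not. The gene exu shares 397 of its 3290 exonic bases (12.1%) with galla-1 on the opposite strand, and whether the counting used strand is not given in the sources used here. The level of galla-1 stayed between 20.8 and 43.4 in poly(A) flow-throughs, and its part in the exu values was not tested.

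The RNA of swa, which encodes a protein that anchors bcd RNA late in oogenesis, followed bcd more than exu. Its flow-through levels were 270.1 at NC 7-9, 283 and 291 at NC 9-10, 235 and 270.3 at syncytial blastoderm and 99.1 and 108 at cellular blastoderm. The cellular blastoderm values were well below all others, at 36.1% of NC 9-10, a log2 difference of -1.46 ± 0.31 (limma adjusted p 0.00198). From syncytial blastoderm the difference was -1.27 ± 0.31 (limma adjusted p 0.00811), and without the second preparation of syncytial blastoderm it was -1.17 with an adjusted p of 0.0686. In that comparison bcd, exu and swa were called, all lower, beside 33.3% of all genes called and 16.2% called lower.

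Levels of stau, which encodes the anchor of bcd RNA in the egg and also works with oskar RNA at the posterior and in neural stem cells, depended on the preparation. In flow-throughs it had 184 at NC 7-9, 198 and 105 at NC 9-10, 208 and 23.8 at syncytial blastoderm and 313 and 103 at cellular blastoderm. The first preparation was higher than the second in all 9 pairs of stage and fraction with 2 preparations, by 1.71-fold to 8.73-fold. The same ratio of the first to the second preparation ranged from 0.675 to 1.31 for bcd and from 0.519 to 1.195 for tor, and swa was lower in the first preparation throughout (0.392 to 0.997). The stau difference between cellular blastoderm and NC 9-10 was 0.31 ± 1.21 (limma adjusted p 0.864), and its sign changed without either the first preparation of cellular blastoderm (-0.49) or the second of NC 9-10 (-0.14).

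Among the terminal genes, the receptor gene tor showed no called change. In flow-throughs it had 116 at NC 7-9, 118 and 152 at NC 9-10, 202 and 176 at syncytial blastoderm and 127 and 137 at cellular blastoderm. The values at cellular blastoderm fell between those of NC 9-10. The difference between them was -0.02 ± 0.34 (limma adjusted p 0.985), and it was 0.03 without the first preparation of cellular blastoderm and 0.17 without the second of NC 9-10. On the values as deposited it was -1.68 with an adjusted p of 0.0184, beside a median of all genes of -1.05 on those values and 0.23 on the rescaled ones. On the rescaled values the difference of tor between cellular and syncytial blastoderm was -0.51 ± 0.34 (limma adjusted p 0.288). It was not called, although both values of cellular blastoderm lay below both of syncytial blastoderm. The ratio of tor to bcd in flow-throughs was 1.86 and 1.95 at cellular blastoderm, against 0.914 and 1.13 at NC 9-10.

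The ligand gene trk, a single-exon gene, had lower levels than the genes above. Its flow-through levels were 10.6 at NC 7-9, 9.05 and 14.7 at NC 9-10, 6.18 and 3.65 at syncytial blastoderm and 2.44 and 1.13 at cellular blastoderm. Behind these stood an estimated 126, 140, 168, 5, 12, 18 and 6 reads, so the blastoderm values rest on few reads. All blastoderm values lay below all earlier ones. The difference between cellular blastoderm and NC 9-10 was -2.21 ± 0.53 (limma adjusted p 0.00425), and without the second preparation of NC 9-10 it was -1.89 with an adjusted p of 0.0660. For syncytial blastoderm against NC 9-10 it was -1.12 ± 0.53 (limma adjusted p 0.302).

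Inputs gave the same calls for the 7 genes as flow-throughs in each of the 3 stage comparisons. In cellular blastoderm against NC 9-10, bcd (-0.95 ± 0.21), exu (-4.03 ± 0.33), swa (-1.88 ± 0.31) and trk (-2.73 ± 0.53) were lower, with limma adjusted p-values of 0.00246, 2.76e-06, 0.000382 and 0.00118. Of all genes, 48.9% were called there and 21.3% were called lower. In the inputs only exu was called between syncytial blastoderm and NC 9-10 (-2.41 ± 0.33; limma adjusted p 0.00184; 7.56% of all genes called, 5.79% lower), and bcd (-1.47), exu (-1.62) and swa (-1.74) between cellular and syncytial blastoderm (30.7% of all genes called, 13.9% lower). Flow-through and input come from the same preparations and share 1 fit. Between flow-through and input over all stages, no gene of the 7 and none of the 8744 genes tested was called by limma, while 48 genes higher and 25 lower had an unadjusted p below 0.05. The differences of the 7 ranged from -0.10 (stau) to 0.13 (exu).

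**Figure D2:**
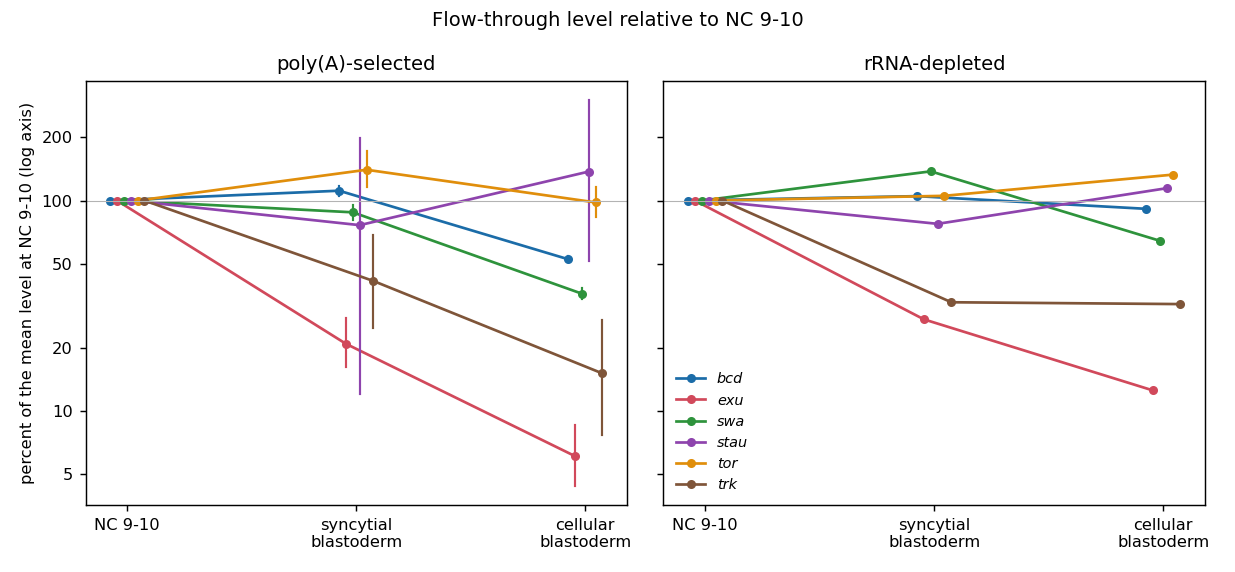
Flow-through level as percent of the mean at NC 9-10 (log axis), in poly(A) libraries (left; vertical lines run from the lowest to the highest ratio of single preparations) and in rRNA-depleted libraries (right; 1 library per stage, no error). Both panels show exu lowest at each blastoderm stage and trk next, while bcd at cellular blastoderm stood at 52.6% in poly(A) and 91.4% in rRNA-depleted libraries; tsl is not shown.

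The rRNA-depleted flow-throughs, which keep RNA whatever the length of its tail, gave 1 value per stage and so no test. For exu the levels were 387, 282, 77.0 and 35.4 at NC 7-9, NC 9-10, syncytial and cellular blastoderm, and for trk they were 12.7, 10.3, 3.40 and 3.33. Both were lower at each blastoderm stage than at either earlier stage, as in the poly(A) set. For bcd the levels were 61.7, 67.8, 71.1 and 61.9, so that cellular blastoderm stood at 91.4% of NC 9-10, where poly(A) flow-throughs stood at 52.6%. The rRNA-depleted inputs that fit their label had 42.2 for bcd at cellular blastoderm, against 61.1 at NC 7-9, so the flow-through and the input of this set differed at cellular blastoderm. For swa they were 332, 346, 476 and 223, a rest of 64.4%. For tor they were 105, 106, 112 and 141, the highest value being that of cellular blastoderm. For stau they were 38.6, 44.0, 34.1 and 50.3, from 1 preparation per stage. The poly(A) flow-throughs of the first preparations had 184, 198, 208 and 313 over the same stages. The second preparations had 105, 23.8 and 103 from NC 9-10 onward.

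**Figure D3:**
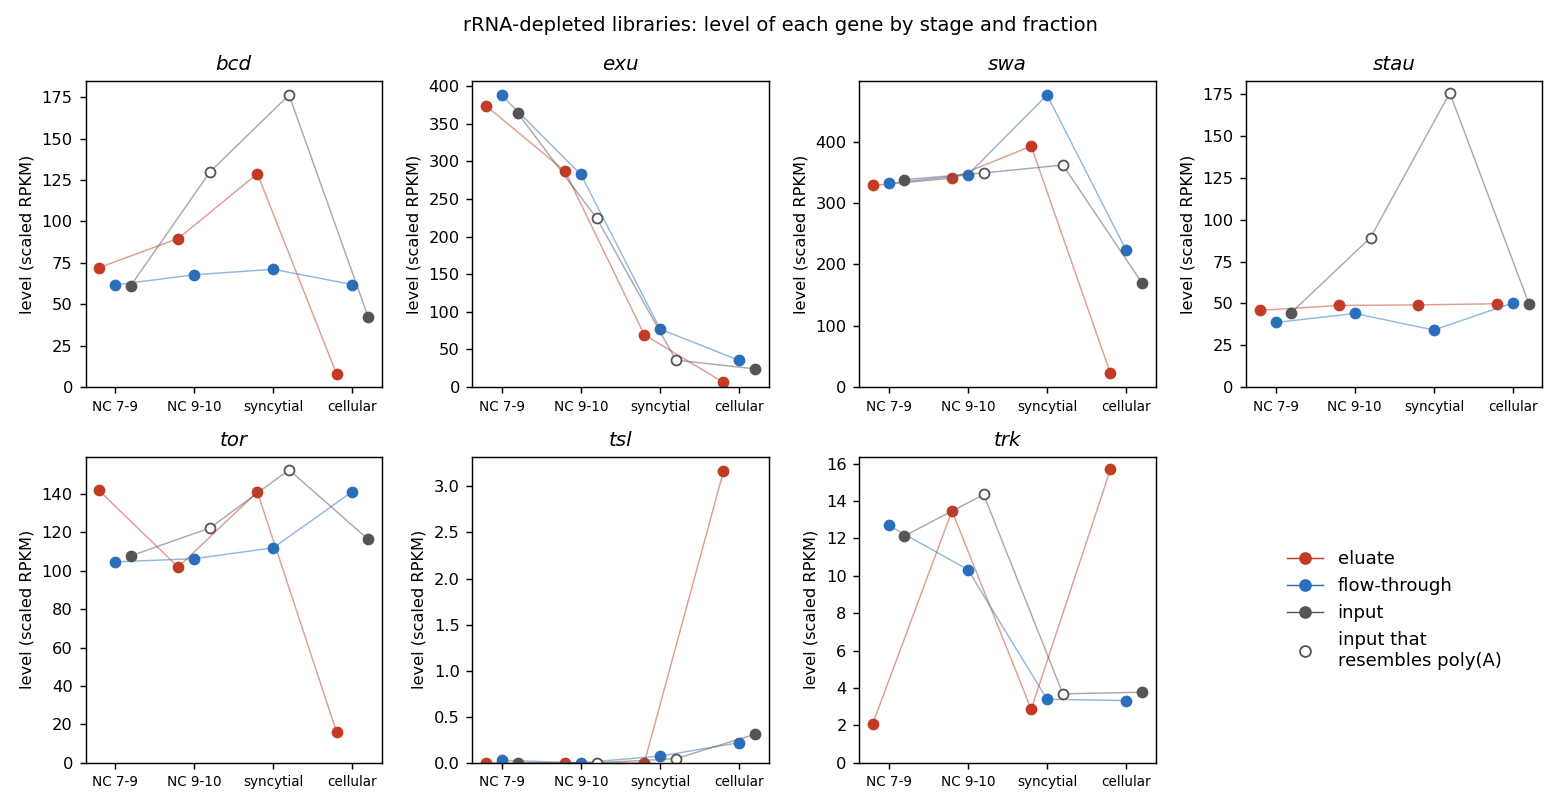
Level of each gene (scaled RPKM, linear axis from 0) in every rRNA-depleted library by stage and fraction; open grey circles are the inputs labelled rRNA-depleted that resemble poly(A) inputs. In flow-throughs bcd stayed between 61.7 and 71.1, exu and trk dropped by syncytial blastoderm, and trk and tsl had their highest levels in the eluate of cellular blastoderm.

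The poly(A) level was set against the rRNA-depleted level in flow-throughs of the same stage, as the log2 ratio less that of the median gene. The poly(A) library was that of the first preparation, which had the same dose, and 6346 to 6826 genes at 1 or more in both were ranked. At both blastoderm stages, however, the poly(A) library most correlated with the rRNA-depleted flow-through was the flow-through of the second preparation. The Pearson r was 0.901 at syncytial and 0.922 at cellular blastoderm. The tables were scaled separately, so these are descriptions with no test. For bcd the deviation was 1.04 at NC 7-9, 1.06 at NC 9-10, 1.11 at syncytial and 0.34 at cellular blastoderm, at percentiles 85.5, 86.7, 84.7 and 66.8 of the genes ranked. With the second poly(A) preparation, a choice made after the data were seen, it was 0.98, 1.07 and 0.14 at the 3 later stages. In flow-throughs both preparations thus placed bcd higher in poly(A) than in rRNA-depleted libraries up to syncytial blastoderm, and nearer to the median gene at cellular blastoderm. Eluates did not show this approach to the median gene at cellular blastoderm. There the deviation of bcd was 1.58 with the first preparation and 1.76 with the second, against 0.85 and 0.41 at NC 9-10. Inputs differed between the poly(A) preparations, at 0.46 with the first and 0.96 with the second at cellular blastoderm. At NC 7-9, the only earlier stage whose rRNA-depleted input fits its label, the deviation was 0.95 with the first preparation. The inputs thus came nearer to the median gene with the first preparation, and the second has no library of NC 7-9.

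The other way round, exu was lower in poly(A) than in rRNA-depleted flow-throughs at every stage. Its deviation was -0.79 at NC 7-9, -0.85 at NC 9-10, -1.16 at syncytial and -1.68 at cellular blastoderm, at percentiles 1.95, 0.926, 9.58 and 0.571. The second poly(A) preparation gave -0.47, -0.88 and -1.51, at percentiles 18.2, 10.1 and 2.72. For swa the deviation was -0.15 and -0.14 at NC 7-9 and NC 9-10 and -0.98 and -0.97 at syncytial and cellular blastoderm, and the second preparation gave -0.25, -0.73 and -1.07.

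For stau the deviation in flow-throughs was the highest of the 6 genes at each stage, at 2.37, 2.29, 2.60 and 2.80 over the 4 stages, at percentiles 96.7, 96.8, 97.8 and 98.6. With the second preparation it was smaller, at 1.23 at NC 9-10, -0.41 at syncytial blastoderm and 0.98 at cellular blastoderm, and it was then the highest of the 6 at NC 9-10 and cellular blastoderm but not at syncytial blastoderm. For tor the deviation was 0.30, 0.29, 0.88 and 0.04, and 0.51, 0.74 and -0.08 with the second preparation, so it was nearest to the median gene at cellular blastoderm in both. For trk it was -0.09, -0.03, 0.74 and -0.14, and 0.47, 0.17 and -1.06 with the second preparation. The trk values at both blastoderm stages rest on an estimated 18 reads or fewer in poly(A) libraries. The gene tsl was under 1 in all flow-throughs and was not compared.

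**Figure D4:**
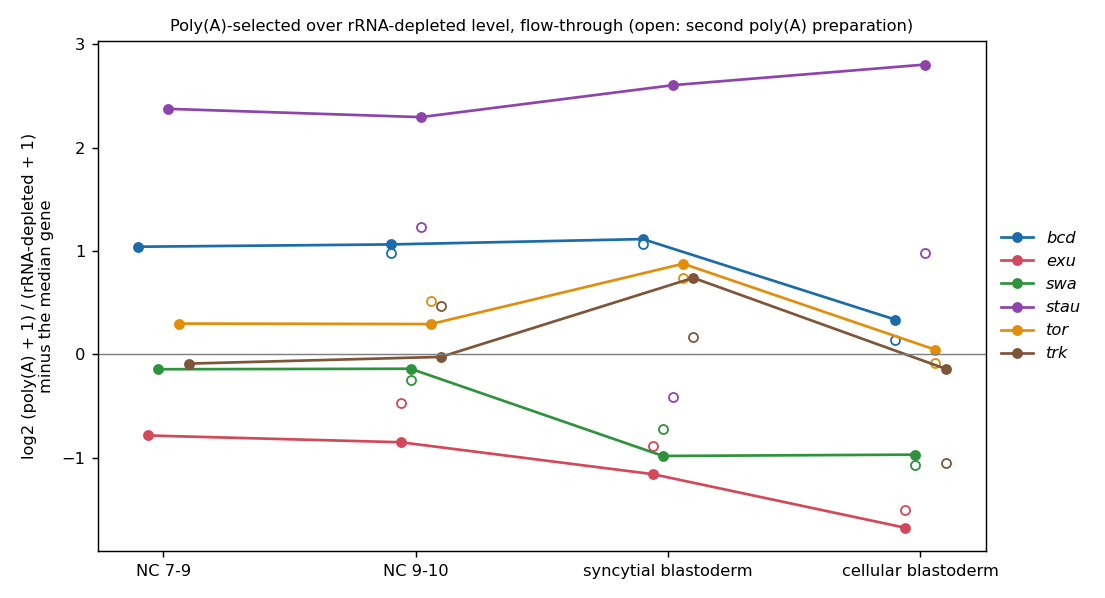
Log2 ratio of poly(A) to rRNA-depleted flow-through level less that of the median gene, by stage, for 6 genes, with filled points for the first and open points for the second poly(A) preparation (none at NC 7-9). Filled points of bcd lie at 1.04 to 1.11 until syncytial blastoderm and at 0.34 at cellular blastoderm, those of exu lie below 0 throughout, and filled and open points of stau are far apart.

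Eluates were set against the inputs of the same stage to ask which RNAs were enriched by the pull-down. At NC 9-10 none of the 7 genes was called and neither was any of the 8744 genes by limma, although 137 higher and 261 lower had an unadjusted p below 0.05. The differences of the 7 ran from -0.71 (trk) to 0.38 (tor). For bcd the levels were 160.3 and 122 in eluates of NC 9-10, against 124 and 132 in inputs. For exu they were 146 and 280, against 134 and 207, and for swa 266 and 267, against 298 and 313. For stau they were 253 and 148, against 226 and 100, and for tor 131 and 229, against 120 and 147. A test in which no gene was called cannot show that levels were alike. Rescaling also made the median gene alike across libraries, where as deposited the median of all genes was -4.28.

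At cellular blastoderm, bcd, swa and tor were lower in eluates than in inputs, and tsl and trk were higher. In this comparison 56.4% of all genes were called, 17.3% lower and 39% higher, and the median of all genes was 0.57. For bcd the levels were 23.8 and 28.2 in eluates, against 53.7 and 79.6 in inputs, with no overlap (-1.30 ± 0.21; limma adjusted p 0.000389). For swa they were 14.3 and 36.4 in eluates, against 79.0 and 85.3 in inputs, again with no overlap (-1.80 ± 0.31; limma adjusted p 0.000619). For tor they were 25.6 and 49.4 in eluates, against 93.6 and 150.0 in inputs (-1.71 ± 0.34; limma adjusted p 0.00147). The flow-throughs of that stage, at 127 and 137 for tor, did not overlap with the eluates either.

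For exu the eluates had 3.90 and 5.86, against 8.66 and 9.83 in inputs. The difference of -0.82 ± 0.33 was not called (limma adjusted p 0.0529), but it was with the preparation as a block (adjusted p 0.00115). For stau the eluates had 393 and 188, against 292 and 122 in inputs. Here too the difference of 0.52 was not called without the block (SE 1.21; limma adjusted p 0.736) and was called with it (adjusted p 0.0148), the eluate being higher within both preparations. As deposited the stau difference was -2.16, beside a median of all genes of -1.87.

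Whether the difference between eluate and input itself differed between cellular blastoderm and NC 9-10 was tested as well. Of the 7 genes, 3 were called lower (bcd, swa and tor) and 2 higher (tsl and trk), beside 35.7% of all genes called (8.52% lower, 27.2% higher). None of the 5 was called when 1 preparation of NC 9-10 was left out, but their differences stayed of similar size: -1.20 and -1.68 for bcd, -1.57 and -1.64 for swa, -2.35 and -1.82 for tor, 1.24 and 1.38 for tsl and 2.68 and 1.91 for trk, without the first and without the second preparation. Over all genes the count called was then 353 and 0, where it was 3123 with both. The call of tsl is a description, since tsl was tested only because of its level in blastoderm eluates.

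In eluates trk had 7.29 at NC 7-9, 8.38 and 7.12 at NC 9-10, 0.794 and 1.75 at syncytial blastoderm and 3.55 and 8.16 at cellular blastoderm. The inputs had 13.2, then 10.8 and 16.4, then 2.82 and 4.80, then 0.319 and 2.55. The eluates were thus below the inputs until syncytial blastoderm and above them at cellular blastoderm. The difference at cellular blastoderm was 1.58 ± 0.53 (limma adjusted p 0.0235), 1.37 with an adjusted p of 0.0979 without the first preparation, and -0.13 on the values as deposited, on which the median of all genes was -1.87. At cellular blastoderm the eluate values rest on an estimated 18 and 49 reads, and the input values on 2 and 6. The eluate values of syncytial blastoderm rest on 3 to 5.

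The rRNA-depleted eluate of cellular blastoderm had a trk level of 15.7 from an estimated 155 reads, against 3.33 in the flow-through and 3.78 in the input. The gene Mulk, on the opposite strand, shares 23 of the 882 exonic bases of trk (2.61%). Its own level at cellular blastoderm was 122 and 114 in poly(A) eluates, against 26.8 and 48.2 in inputs, and 135 in the rRNA-depleted eluate, against 40.5 in the input. Its part in the trk values was not tested.

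The follicle cell gene tsl was close to absent outside the eluates of later stages. Poly(A) eluates had 0 at NC 7-9, 0 and 0.105 at NC 9-10, 0.747 and 2.25 at syncytial blastoderm and 1.43 and 3.06 at cellular blastoderm, from an estimated 0, 0, 3, 11, 9, 17 and 43 reads. Inputs had 0 at NC 7-9 and NC 9-10, 0 and 0.0541 at syncytial blastoderm and 0.0683 and 0.364 at cellular blastoderm, from at most 2 reads in a library. In the rRNA-depleted set the eluate of cellular blastoderm had 3.16 from an estimated 73 reads, against 0.219 in the flow-through and 0.311 in the input, and the eluates of the 3 earlier stages were listed at 0.

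The eluate was above the input in each of the 4 blastoderm preparations of the poly(A) set. The tsl difference was 1.21 ± 0.30 at syncytial blastoderm (limma adjusted p 0.0174), the only call of the 7 genes there, beside 11.9% of all genes called and 11.2% called higher. At cellular blastoderm it was 1.38 ± 0.30 (limma adjusted p 0.00226), and over all stages 0.76 ± 0.23 (limma adjusted p 0.0406; 16.1% of all genes called, 10.3% higher). That share is 1410 genes, and 48 to 1555 with 1 preparation left out. Without the second preparation of syncytial blastoderm the difference at that stage was 0.81 with an adjusted p of 0.253, and without any 1 blastoderm preparation the difference over all stages had an adjusted p of 0.0986 to 0.157. Because tsl reached the level of 1 needed for testing only in blastoderm eluates, a higher level there was a condition of its being tested, and its calls are given as a description.

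Markers of follicle cells, which in the ovary express tsl, were mostly low, and 4 of 18 passed the filter on low levels in the poly(A) table. The level of tsl was low as well, at 1.43 and 3.06 in the poly(A) eluates of cellular blastoderm. Of 18 such genes, 8 and 6 were above 0 in the poly(A) eluates of cellular blastoderm, at a summed level of 15.5 and 5.17, against 4 and 2 genes and 2.73 and 0.938 in the inputs. Of the 4 markers tested, the yolk protein gene Yp3 (1.55 ± 0.30) and slbo (1.12 ± 0.33) were higher in these eluates (limma adjusted p 0.00133 and 0.0124). In the second of the inputs no marker could reach the filter level of 1, since all 18 summed to 0.938. Passing the filter was thus not independent of the eluates, and both calls are given as a description. The other 2 were not called, and 39% of all genes were called higher. The vitelline membrane genes Vm32E and Vm34Ca and the chorion genes Cp16, Cp36 and Cp38 were listed at 0 in every poly(A) library. Whether other cells gave the tsl reads was not tested.

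**Figure D5:**
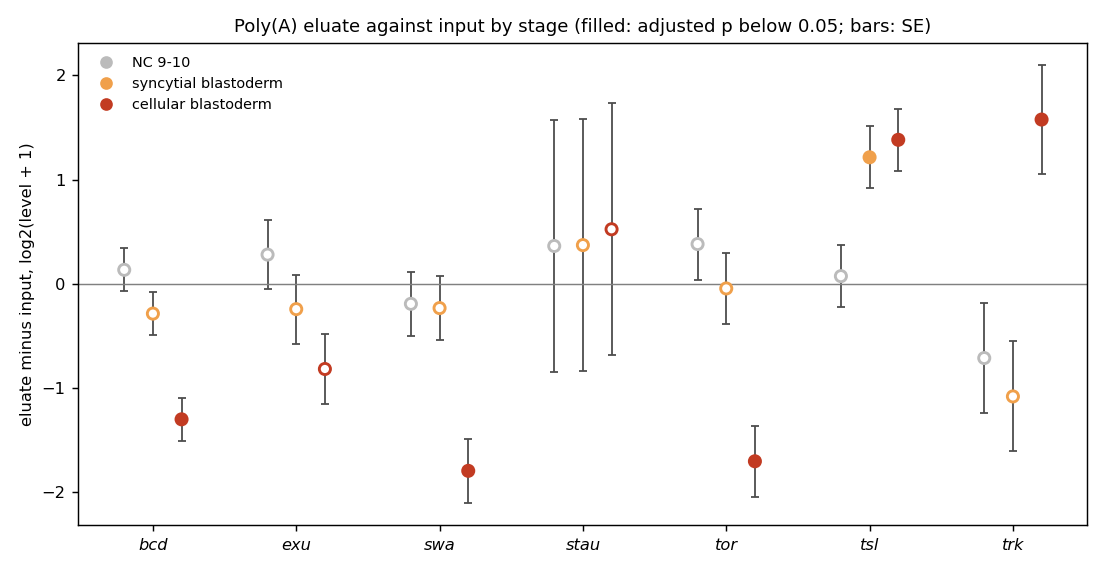
Difference between poly(A) eluate and input on the log2(level + 1) scale for each gene at NC 9-10, syncytial and cellular blastoderm (n = 2 preparations per fraction; bars are SE; filled points have a limma adjusted p below 0.05). At cellular blastoderm bcd, swa and tor lie below 0 and tsl and trk above it, and at NC 9-10 no point is filled.

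In eluates, tor was called between stages as well. In cellular blastoderm against NC 9-10, bcd (-2.39 ± 0.21), exu (-5.13 ± 0.33), swa (-3.49 ± 0.31) and tor (-2.25 ± 0.34) were lower in eluates and tsl (1.58 ± 0.30) was higher, beside 57.1% of all genes called (17.8% lower, 39.4% higher). The limma adjusted p-values were 1.33e-06, 1.43e-07, 1.59e-06, 0.000127 and 0.000645. The tsl calls between stages in eluates are descriptions, since tsl was tested only because of its level in blastoderm eluates. For trk the difference was -0.44 ± 0.53 (limma adjusted p 0.509). The trk levels in eluates of syncytial blastoderm rest on an estimated 3 to 5 reads. In syncytial blastoderm against NC 9-10, exu (-2.94 ± 0.33) and trk (-1.97 ± 0.53) were lower and tsl (1.18 ± 0.30) higher, beside 20.8% of all genes called (7.28% lower, 13.5% higher). The limma adjusted p-values were 5.30e-05, 0.0184 and 0.0132, and those of trk and tsl were above 0.05 without either preparation of NC 9-10 (0.109 to 0.148), for trk without the first preparation of syncytial blastoderm (0.123) and for tsl without the second (0.149).

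In cellular against syncytial blastoderm, bcd (-2.48), exu (-2.20), swa (-3.31) and tor (-2.27) were lower in eluates and trk (1.54 ± 0.53; limma adjusted p 0.0319) was higher, beside 45.7% of all genes called (13.9% lower, 31.7% higher). The trk call was lost with the preparation as a block (limma adjusted p 0.0591), and without the second preparation of cellular blastoderm (0.128), the first of syncytial blastoderm (0.179) or the second of syncytial blastoderm (0.0503). The eluates of syncytial blastoderm in this trk comparison hold an estimated 3 to 5 trk reads. For tsl the difference was 0.40 ± 0.30 (limma adjusted p 0.297).

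The rRNA-depleted set gave no call for any of the 6 genes tested over all stages, between eluate and input (0% of 8131 genes called), eluate and flow-through (0.467% called) or flow-through and input (0% called). By limma, 522 genes higher and 555 lower had an unadjusted p below 0.05 for eluate against input, and 29 higher and 100 lower for flow-through against input. The differences between eluate and flow-through ran from -0.89 (swa) to 0.22 (stau). These averages pool unlike stages: bcd had 72.1, 89.7, 129 and 7.95 in eluates from NC 7-9 to cellular blastoderm, against 61.7, 67.8, 71.1 and 61.9 in flow-throughs. Without the inputs labelled rRNA-depleted at NC 9-10 and syncytial blastoderm, the stau difference between flow-through and input was -0.15, where with them it was -0.88 (unadjusted p 0.0427; limma adjusted p 1), and no gene of the 6 was called either way.

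Other genes of both pathways were taken from lists. In poly(A) flow-throughs of cellular blastoderm against NC 9-10, 2031 of all 8744 genes tested were called lower and 2214 higher. Of 15 other genes of bcd RNA transport and regulation, 6 were lower and 2 higher there. Their median difference was -1.19, against 0.23 over all genes. Those that fell included gammaTub37C (-4.35 ± 0.35), the maternal gamma-tubulin, orb (-4.13 ± 0.35), a cytoplasmic polyadenylation protein, nod (-3.89 ± 0.26), a kinesin-like protein, and Dhc64C (-3.75 ± 0.38), the dynein heavy chain, each with a smaller limma adjusted p than bcd. At syncytial blastoderm 4 of the 15 were already lower and none was higher (median -0.76 against 0.00): Dhc64C (-2.69), gammaTub37C (-2.11), nod (-1.72) and msps (-1.13). Of all genes, 5.96% were called lower in that comparison.

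The 3 listed eggshell genes of the Torso ligand pathway with a row in the table all fell in the same comparison of cellular blastoderm with NC 9-10: fs(1)M3 (-4.65 ± 0.37), clos (-4.45 ± 0.32) and fs(1)N (-4.01 ± 0.35). Of them fs(1)M3 (-1.996) and clos (-1.31) were already lower at syncytial blastoderm. Of 16 genes that carry or modify the Torso signal, 6 were higher and 3 lower at cellular blastoderm (median 0.37 against 0.23). Among all 8744 genes tested, 2214 were called higher and 2031 lower. Socs36E, a JAK/STAT feedback inhibitor, rose by 5.22 ± 0.42, and Dsor1, the MAP kinase kinase, fell by 2.55 ± 0.22, Sos, the Ras exchange factor, by 2.42 ± 0.38 and dos, an adaptor, by 1.48 ± 0.19. Neither of the repressors cic (-1.17) and gro (0.95) was called.

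In eluates against inputs of cellular blastoderm, 8 of the 16 signal genes were higher and 3 lower (median 0.64 against 0.57 over all genes), where 39% of all genes were called higher and 17.3% lower. Those named by size are Sos (2.39 ± 0.38), Socs36E (2.23 ± 0.42), Dsor1 (1.91 ± 0.22) and dos (1.73 ± 0.19). Sos, Dsor1 and dos were thus lower in flow-throughs of cellular blastoderm than of NC 9-10 and higher in its eluates than in its inputs. Counts of this kind do not set the lists apart from other genes. Of the 15 transport genes 5 were higher and 3 lower in these eluates (median -0.55), the higher ones including Vps36 (2.12), brat (1.87), msps (1.86 ± 0.22) and Dhc64C (1.55 ± 0.38). Of the eggshell genes fs(1)N was lower (-1.03 ± 0.35) and the other 2 were not called.

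Of 7 zygotic targets of Bicoid and Torso, 6 were higher in flow-throughs of cellular blastoderm than of NC 9-10 and none was lower, with a median of 4.22. They included gt (5.89 ± 0.88), tll (5.60 ± 1.15), hkb (4.93 ± 0.81) and ems (4.22 ± 0.43). Among all 8744 genes tested, 2214 were called higher in that comparison. In eluates against inputs all 7 targets were already higher at syncytial blastoderm (median 4.20 against 0.08 over all genes), beside 11.2% of all genes called higher. Among these targets were tll (4.49 ± 1.15), hkb (4.37 ± 0.81), ems (4.22 ± 0.43) and gt (4.20 ± 0.88). At NC 9-10 none of the 7 targets was called (median 0.75 against 0.00). Of 8 germ plasm and pole cell markers, 7 were lower in flow-throughs of cellular blastoderm than of NC 9-10, led by vas (-3.88 ± 0.30) and osk (-3.10 ± 0.36). Of all genes, 23.2% were called lower there.

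Of the 6565 genes with a mean level of at least 5, those whose log2 level was most alike over the 21 poly(A) libraries were named for each of the 7. These libraries share preparations, so the values are descriptions. For bcd they were CdsA, CG11474 and CG2187 (Pearson r 0.974, 0.971 and 0.970), for exu Cyp6a19, Got2 and shu (0.995, 0.991 and 0.991), and for swa nrv1, Vha68-2 and Idh (0.987, 0.985 and 0.984). For stau they were CG3198, Nup153 and PPP4R2r (0.974, 0.973 and 0.967) and for tor msk, twe and CG8726 (0.979, 0.973 and 0.970). For tsl they were CG10924, CR44677 and Krn (0.933, 0.931 and 0.929) and for trk Ccs, CG12321 and CG12107 (0.923, 0.913 and 0.911). Among the 7 themselves bcd and swa were most alike (0.950), then bcd and tor (0.868), and stau had a negative r with bcd (-0.40), swa (-0.36) and tor (-0.43).

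In dm6 coordinates, taken from the BDGP6.54 annotation, all 7 are protein-coding genes on the minus strand. The gene bcd (FBgn0000166) lies on 3R from 6755842 to 6759466 and tsl (FBgn0003867) on the same arm from 21778114 to 21782536. The genes exu (FBgn0000615; 20667427 to 20671083), stau (FBgn0003520; 18117896 to 18125779) and tor (FBgn0003733; 7705183 to 7709184) lie on 2R. The gene swa (FBgn0003655) lies on X from 6363418 to 6365708, and trk (FBgn0003751) on 2L from 10271443 to 10272324. Only exu and trk overlap another annotated gene.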

How the data were processed

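The authors deposited 1 table of RPKM values for the 21 poly(A) libraries and 1 for the 12 rRNA-depleted libraries. Per the labels' protocols, the kit was SMARTer Stranded. The submitters' processing notes name STAR, HTSeq and dm6 with no version; how strand was counted and how values were filtered or scaled is not given in the sources used here. The deposited RPKM values hold an added 1 and an unknown factor per library, as the values show: 75.7% to 86.4% of low values fell within 0.05 of whole multiples of 1 read once the 1 was taken off. These steps and exonic lengths gave the estimated reads, which carry no interval.

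After the 1 was taken off, libraries were scaled to 1000000 and then by the median of ratios over genes above 0 in every library of a table (6294 poly(A), 6103 rRNA-depleted). The filter was a level of 1 in 2 libraries (8744 and 8131 genes kept). log2(level + 1) was tested with limma 3.58.1 in R 4.3.3, with empirical Bayes and a mean trend, two-sided, at a Benjamini-Hochberg adjusted p below 0.05. A single model held the 21 poly(A) libraries, by stage and fraction; comparisons over all stages had terms for both. The 2 tables were never tested together, and NC 7-9 and single rRNA-depleted libraries have no test. The procedure was run on simulated data with known changes. Noise there was independent in each library, so the simulation cannot show how a shared preparation affects calls.

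Titles with one stage, dose and replicate tie 3 fractions to a preparation. Across genes, departures of these fractions from their group means had a Pearson r of 0.590 to 0.650 for eluate with input, 0.586 to 0.929 for flow-through with input, and 0.511 to 0.676 for eluate with flow-through. A model with the preparation as a replicate block is quoted where it changed a call. Symbols matched the BDGP6.54 annotation, release 115, for 16389 of 16407 genes (99.89%). Other settings were other scalings, pseudocounts of 0.1 and 5, no filter or one at 5, no mean trend, and each preparation left out. All 7 genes are named throughout, other genes where they were among the 4 largest changes called in a list, and 3 most similar genes per gene. The 7 genes and the lists were chosen with earlier results of these data known.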

Additional observations from a re-analysis of the deposited data

Results flagged for a closer look

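The difference between eluate and input itself differed between cellular blastoderm and NC 9-10 for 5 of the 7 genes, by the limma test of that difference in the poly(A) set, in which 35.7% of all genes were called. It was more negative at cellular blastoderm for bcd (-1.44 ± 0.29; limma adjusted p 0.00480), swa (-1.60 ± 0.44; adjusted p 0.0157) and tor (-2.09 ± 0.48; adjusted p 0.00791). It was more positive for tsl (1.31 ± 0.42; adjusted p 0.0305) and trk (2.29 ± 0.75; adjusted p 0.0326). The tsl value is a description, since tsl was tested only because of its level in blastoderm eluates. For exu it was -1.10 ± 0.47 (limma adjusted p 0.0872, and 0.00299 with the preparation as a block). The median of all genes was 0.59. On the values as deposited the median was 1.597 and the values of bcd, swa and exu turned to 0.30, 0.12 and 0.64. When the first or the second preparation of NC 9-10 was left out none of the 7 was called, while the differences kept their sign and similar size (swa -1.57 and -1.64, trk 2.68 and 1.91) and the count over all genes was 353 and 0, where it was 3123 with both. The tsl call was also lost without the second preparation of cellular blastoderm (limma adjusted p 0.0884) and the trk call without the first (0.0645). The cause was not tested.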

How the results depend on the processing

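Of the values for single genes under other settings, 598 kept their sign and their side of the threshold, 49 lost a call, 9 gained one and 21 changed sign. Scaled to 1000000 alone, the stau difference between cellular blastoderm and NC 9-10 was -0.47 in flow-throughs and -0.22 in inputs, 5 of the 7 genes were called in flow-throughs of cellular against syncytial blastoderm, and 2 were called for eluate against input at syncytial blastoderm and 2 over all stages. On the values as deposited the median of all genes also moved, to -4.28 for eluate against input at NC 9-10. The same stau differences were -1.34 and -0.94. Syncytial blastoderm against NC 9-10 then gave 3 calls in flow-throughs, with bcd at -0.999 and tor at -0.66, and 1 in eluates. Of all 8744 genes, 1759 and 678 were called in these fractions. Eluate against input gave 6 calls at NC 9-10, 5 at syncytial blastoderm and 6 over all stages, where 6784, 6410 and 6911 of all 8744 genes were called, and at cellular blastoderm stau stood at -2.16 and trk at -0.13. The change of that difference between stages gave 1 call, beside 2593 of all genes, with bcd at 0.30, exu at 0.64 and swa at 0.12. In the rRNA-depleted set the eluate gave 6 calls against input and 6 against flow-through, where 6934 and 6874 of all 8131 genes were called.

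For eluate against input, a pseudocount of 5 and a filter at 5 each left 0 calls at syncytial blastoderm and 0 over all stages, as did no filter over all stages; under the filter at 5 tsl was not tested. A pseudocount of 5 gave 2 calls for inputs of syncytial blastoderm against NC 9-10, and a pseudocount of 0.1 gave 3 for the change between stages. Flow-throughs alone gave 0 calls for syncytial blastoderm against NC 9-10. With the replicate block, 2 of the 7 genes were called over all stages, exu and stau were added at cellular blastoderm, exu was added to the change between stages, and trk was lost in eluates of cellular against syncytial blastoderm.

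Leaving out 1 preparation at a time gave, for cellular blastoderm against NC 9-10, -0.49 to 1.12 for stau and -0.20 to 0.17 for tor in flow-throughs, -0.30 to 0.95 for stau and -0.50 to 0.17 for tor in inputs, and -0.94 to 0.070 for trk in eluates. For syncytial blastoderm against NC 9-10 stau ranged from -2.55 to 0.52 in flow-throughs, and for cellular against syncytial blastoderm tsl ranged from -0.045 to 0.85 in eluates. Calls ranged from 1 to 2 in eluates of syncytial blastoderm against NC 9-10, from 0 to 1 for eluate against input at syncytial blastoderm and over all stages, and from 0 to 4 for the change between stages. Counts over all genes with 1 preparation left out were 38 to 469 (576 with all) in flow-throughs, 87 to 396 (661) in inputs and 906 to 1748 (1821) in eluates of syncytial blastoderm against NC 9-10, 48 to 1555 (1410) for eluate against input over all stages and 0 to 2568 (3123) for the change between stages. With the replicate block they were 28 (0) at NC 9-10, 1680 (1039) at syncytial blastoderm and 4944 (3123) for that change. The cause was not tested. Low read numbers limit trk and tsl.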
